A study of Homo sapiens with 14 samples.

Results

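CTCF and the cohesin genes form a set of 10 transcripts, taken by name from every table of the series: CTCF, SMC1A, SMC3, RAD21, STAG1, STAG2, NIPBL, PDS5A, PDS5B and ESCO2. All 10 were found in each kind of table, out of 76328 gene symbols listed in at least 1 of them, and all 10 passed the filters on low counts. PolyA RNA was sequenced from IMR90, primary human fetal lung fibroblasts, in 7 groups. Cells of the isolates named I79 and I10 were taken young (low passage, proliferating) or old (high passage, driven to senescence by serial passaging), with no treatment named in the labels, and each of these 4 groups has 1 table for the 2 libraries its titles list. I79 cells treated with inflachromene (ICM), a small molecule that binds HMGB1 and HMGB2, gave 2 libraries, and wild-type (WT) cells and cells depleted of the chromatin protein HMGB2 by siRNA (HMGB2 KD) gave 2 libraries each. The labels give neither the isolate or passage of the WT and HMGB2 KD cells nor a control siRNA for WT, and they give no dose for ICM.

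CTCF is a zinc finger protein that binds DNA at an oriented motif and halts cohesin there, which sets the anchors of chromatin loops and the borders of topological domains. Cohesin is a ring made of SMC1A, SMC3 and RAD21 that carries either STAG1 or STAG2. NIPBL drives its loading and loop extrusion, PDS5A and PDS5B bind the ring and help both its release and its stabilization, and ESCO2 acetylates SMC3 in S phase so that sister chromatids stay joined until mitosis.

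The totals were 14991385 to 20632959 estimated counts in the young and old tables, 10971132 and 13290131 reads in the ICM libraries, and 33561766 to 41168932 counts in the WT and HMGB2 KD libraries. The 7 fibroblast markers checked, among them COL1A1, VIM and PDGFRA, were above 0 in every table, with summed levels of 10957 to 33405 CPM, the counts scaled to a common library size. Of 7 markers of epithelial, immune and endothelial cells, 6 were listed in all tables, and 1 to 3 of them stood at 0 in a given table. Their summed level, nearly all of it from CD68, was 25.7 and 27.8 CPM in young I79 and I10 cells, 163 and 84.1 in old ones, 63.2 and 70.2 in ICM and 42.8 to 53.1 in WT and HMGB2 KD, and its part in the results was not tested. HMGB2, the siRNA target, fell from 27.1 and 27.3 CPM (WT) to 3.22 and 3.64 CPM (HMGB2 KD) in the libraries of the knockdown (log2 fold change -2.99, SE 0.16, adjusted p = 8.28e-07, edgeR).

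The sequences before the transcription start are shown for 5 of the genes, each in a window that holds a match to the letters searched. They let the lower transcripts be read beside those that held their level. RefSeq (GRCh38.p14) gave 11 start sites for 8 of the members, and the 250 bases before each start were searched on both strands. The letters searched were TTTCCCGC and TTTGGCGC, both forms of the E2F site found before S phase genes, TTTGAA, known as the cell cycle homology region (CHR), and the core of the CTCF motif, which reads CCAGCAGAGGGC in its match before STAG1. Capitals mark the matches. SMC1A is shown at chrX:53422655-53422904 on the minus strand, CTCF at chr16:67562276-67562525 on the plus strand, NIPBL at chr5:36876519-36876768 on the plus strand, STAG1 at chr3:136752379-136752628 on the minus strand and STAG2 at chrX:123961808-123962057 on the plus strand.
SMC1A: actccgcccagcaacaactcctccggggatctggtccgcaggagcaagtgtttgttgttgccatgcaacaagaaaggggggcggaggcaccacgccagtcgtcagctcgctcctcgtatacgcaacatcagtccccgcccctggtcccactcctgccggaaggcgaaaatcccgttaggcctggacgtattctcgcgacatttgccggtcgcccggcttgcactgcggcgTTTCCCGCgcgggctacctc
CTCF: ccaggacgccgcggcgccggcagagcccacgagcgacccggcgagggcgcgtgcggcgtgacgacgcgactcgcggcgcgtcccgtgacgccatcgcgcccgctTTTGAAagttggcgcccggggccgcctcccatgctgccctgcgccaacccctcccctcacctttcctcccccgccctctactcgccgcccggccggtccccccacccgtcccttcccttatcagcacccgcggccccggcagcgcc
NIPBL: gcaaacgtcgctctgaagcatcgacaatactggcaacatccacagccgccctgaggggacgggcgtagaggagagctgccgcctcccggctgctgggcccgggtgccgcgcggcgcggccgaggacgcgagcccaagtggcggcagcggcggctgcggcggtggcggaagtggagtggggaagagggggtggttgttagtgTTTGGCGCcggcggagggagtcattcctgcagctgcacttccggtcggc
STAG1: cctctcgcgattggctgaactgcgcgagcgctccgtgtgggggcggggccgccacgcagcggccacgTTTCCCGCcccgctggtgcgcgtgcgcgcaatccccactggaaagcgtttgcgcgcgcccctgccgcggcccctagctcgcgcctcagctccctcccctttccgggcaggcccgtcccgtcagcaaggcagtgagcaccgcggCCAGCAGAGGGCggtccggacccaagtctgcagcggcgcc
STAG2: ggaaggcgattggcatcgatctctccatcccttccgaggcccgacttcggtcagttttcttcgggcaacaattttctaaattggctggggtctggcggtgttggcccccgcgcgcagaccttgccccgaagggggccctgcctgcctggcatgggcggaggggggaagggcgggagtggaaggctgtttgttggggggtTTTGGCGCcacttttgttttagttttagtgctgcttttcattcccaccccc

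TTTCCCGC was found 20 bases before a start of SMC1A and 183 bases before that of STAG1, and it was present in 1.39% of the 35116 promoter windows of this length. TTTGGCGC was found before NIPBL and STAG2 and was present in 0.55% of windows. Either form was thus held by 4 of the 11 member windows, 1 each of 4 genes, against 1.93% of all windows. Of these 4 genes, SMC1A fell in old cells, NIPBL was lower by less than the fold threshold, and STAG1 and STAG2 did not pass any test below. TTTGAA was found before CTCF and SMC3 and in 13.3% of windows, and the CTCF core was found, among the members, before STAG1 alone, 40 bases from its start, and in 2.02% of windows. No match was found before PDS5A and PDS5B, and no promoter sequence is given for RAD21 and ESCO2.

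The first comparison asked how the members differed between old and young cells, with the 2 isolates as replicates. ESCO2 and SMC1A fell in old cells and passed both thresholds, an adjusted p under 0.01 and a log2 fold change past 0.6 in either direction. No member rose. Among the 15116 genes tested by edgeR's quasi-likelihood test, 9.57% passed both thresholds, 3.82% downward and 5.75% upward, so 2 of 10 members lower compares with 3.82%. With an adjusted p under 0.05 and no fold limit, 5 members were lower (CTCF, SMC1A, SMC3, NIPBL and ESCO2), against 15.4% of all genes. The median log2 fold change of the members was -0.36, and that of all genes was -0.01. Young and old values did not overlap for any member, which was also so for 74% of all genes. CTCF, SMC1A and ESCO2 were lower by over 0.6 in each isolate taken alone, as were 13.4% of genes. Since each group has 1 table, these p-values rest on the spread between isolates, with 1 residual degree of freedom in the fit. EdgeR shares this spread between genes, so that the p-values do not measure the spread of a single gene alone. In bulk RNA, fewer cells that carry a transcript and less of it per cell cannot be told apart.

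**Figure D1:**
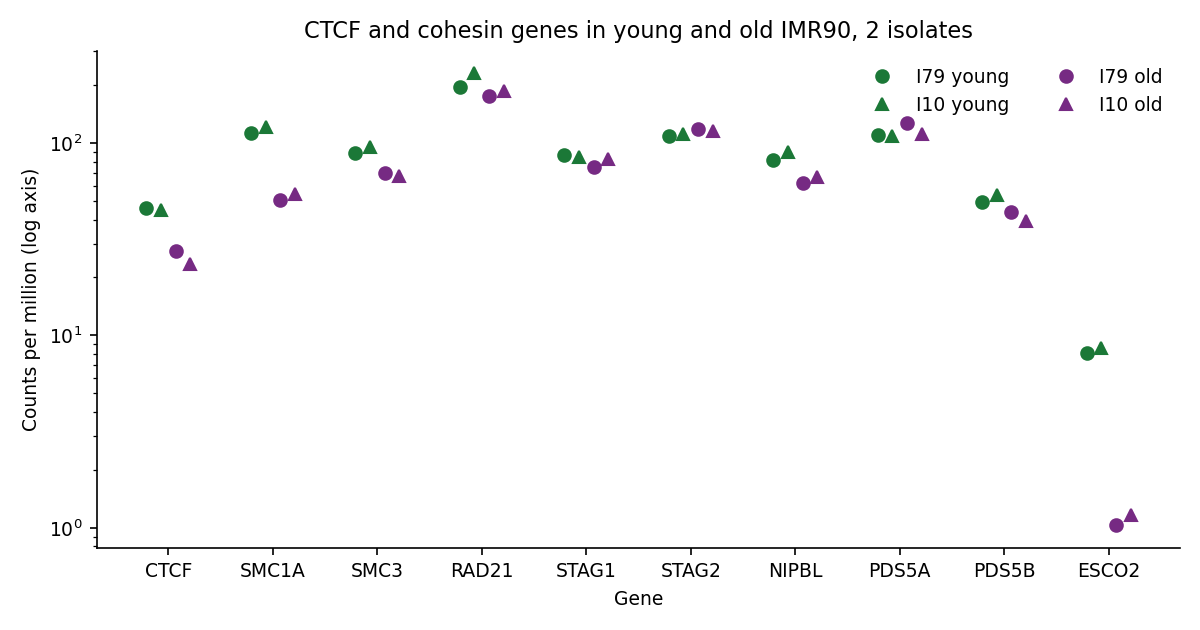
CPM (log axis) of the 10 members in the young (green) and old (purple) tables of isolates I79 (circles) and I10 (triangles), 1 point per table. SMC1A and CTCF are lower in both old tables, ESCO2 falls from above 8 to about 1, and the values of STAG2 and PDS5A lie close together.

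CTCF (chr16:67596370-67673080, GRCh37, plus strand) was measured at 46.1 CPM in young I79 cells, 27.5 in old I79 cells, 45.0 in young I10 cells and 23.4 in old I10 cells. Both old tables thus lay well below both young ones. The log2 fold change was -0.84 (SE 0.12), and the adjusted p of 0.0107 missed the threshold of 0.01 by a small margin. With DESeq2's Wald test the adjusted p was 0.00608, and over all other fits and thresholds tried it ran from 1.85e-06 to 0.0136, so that the call for CTCF depends on the setting. Within isolates the log2 ratio of old to young was -0.74 in I79 (95% counting interval -0.91 to -0.58) and -0.94 in I10 (-1.11 to -0.77).

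Of the ring subunits, SMC1A (chrX:53401070-53449677, minus strand), an ATPase arm of the ring, had 113 CPM in young I79, 50.6 in old I79, 121 in young I10 and 54.1 in old I10 cells. The old level was less than the young level by nearly the same factor in each isolate, with a log2 ratio of -1.16 in both. The fitted change was -1.16 (SE 0.10, adjusted p = 0.00452), a 2.24-fold fall. SMC3 (chr10:112327442-112365806, plus strand), the partner arm, stood at 88.1 and 95.5 CPM in young I79 and I10 cells and at 70.2 and 67.0 in old ones. Its log2 fold change of -0.42 (SE 0.10) lay inside the fold threshold, with an adjusted p of 0.0389. RAD21, the kleisin that closes the ring, had 196 and 230 CPM in young and 176 and 186 in old cells of I79 and I10 (log2 fold change -0.23, SE 0.11, adjusted p = 0.173).

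The subunits STAG1 and STAG2, which are alternatives in the ring, stayed close to their young levels. STAG1 (chr3:136055078-136471245, minus strand) had 87.0 and 85.0 CPM in young I79 and I10 cells and 74.9 and 82.9 in old ones (log2 fold change -0.13, SE 0.10, adjusted p = 0.391). STAG2 (chrX:123094062-123556514, plus strand) had 109 and 111 CPM in young and 118 and 116 in old cells (0.08, SE 0.10, adjusted p = 0.537). The counting interval in I10 included 0 for both genes, whereas in I79 it lay below 0 for STAG1 (-0.33 to -0.11) and above 0 for STAG2 (0.03 to 0.21).

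Among the loader and regulators, NIPBL (chr5:36876871-37066515, plus strand) was at 81.1 and 89.5 CPM in young I79 and I10 cells and at 61.8 and 66.5 in old ones. Its fall was of like size in both isolates, and the fitted log2 fold change was -0.41 (SE 0.10, adjusted p = 0.0343). PDS5A (chr4:39824483-39979576, minus strand) had 110 and 108 CPM in young and 127 and 111 in old cells (log2 fold change 0.13, SE 0.10, adjusted p = 0.390). PDS5B (chr13:33160589-33352157, plus strand) had 49.3 and 53.8 CPM in young and 43.8 and 39.5 in old cells (-0.31, SE 0.12, adjusted p = 0.116). The 2 PDS5 genes thus had fold changes of opposite sign, neither of which passed the test. When library totals replaced the TMM scaling, all genes shifted by -0.21 in the median and the signs of STAG2 (-0.13) and PDS5A (-0.085) turned, so that no direction is given for them.

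ESCO2 showed the largest change of the 10 members. Its 127 estimated counts in young I79 cells (8.13 CPM) compared with 19 in old I79 cells (1.03 CPM), and its 164 in young I10 cells (8.55 CPM) with 21 in old I10 cells (1.16 CPM). The young and old values were far apart, and the isolates were close to each other at each age. The fitted fall was 7.58-fold (log2 fold change -2.92, SE 0.26, adjusted p = 0.00483). The small old counts widened the counting intervals, which were -3.76 to -2.28 in I79 and -3.61 to -2.22 in I10.

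**Figure D2:**
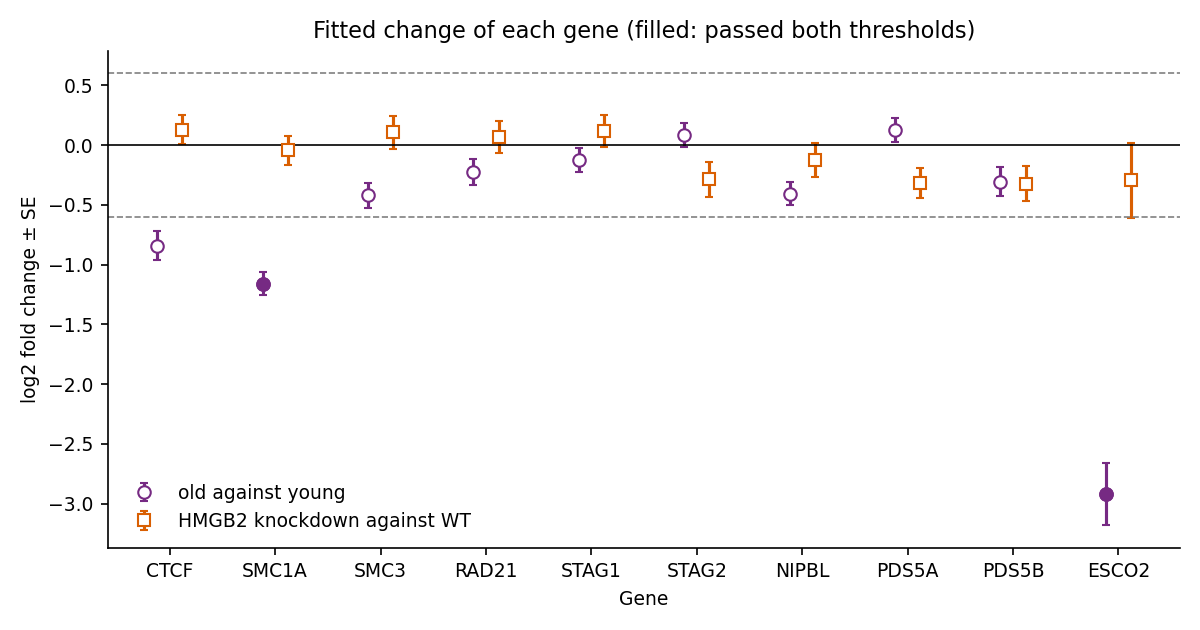
Fitted log2 fold change with its SE for each member in old against young cells (purple circles) and in HMGB2 KD against WT (orange squares). Filled symbols passed both thresholds and dashed lines mark 0.6 in each direction. SMC1A at -1.16 and ESCO2 at -2.92 are filled, CTCF at -0.84 lies past the line with an open symbol, and all knockdown values lie within the lines.

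Levels of different genes can be compared per length, here as TPM, which divides the counts by transcript length. RAD21 was the most abundant member, with 96.4 and 118 TPM in young I79 and I10 cells and 76.1 and 77.2 in old ones. SMC1A (37.5 and 45.1 TPM in young I79 and I10), SMC3 (36.7 and 40.5) and STAG2 (39.4 and 37.4) followed in young cells, with ranges that overlapped, so that their order is not resolved. PDS5A (26.9 and 26.8), STAG1 (25.0 and 24.6), CTCF (21.03 and 21.3), PDS5B (19.0 and 20.7), NIPBL (16.2 and 18.8) and ESCO2 (4.50 and 8.46) came below, and of these neighbours CTCF and PDS5B differed by little.

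The level of SMC1A depends on how its transcripts are summed. SMC1A-205, a transcript of 838 bases, held 14.3 and 16.8 of its TPM in young I79 and I10 cells on 5.2% and 5.6% of its counts. Over transcripts of at least 1000 bases, a sum chosen after seeing the data, SMC1A had 17.8 and 19.2 TPM in young I79 and I10 cells, below SMC3 at 36.5 and 40.5. On this sum it had 7.42 and 7.51 TPM in old cells, and SMC3 had 26.4 and 24.2. The same sum gave PDS5B 12.5 and 14.2 TPM in young cells and ESCO2 3.40 and 3.06.

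In old cells SMC1A was at 12.8 and 14.3 TPM over all transcripts, below SMC3, STAG2, PDS5A and STAG1 in both isolates. The ratio of SMC1A to SMC3 was 1.02 and 1.11 in young I79 and I10 cells and 0.49 and 0.59 in old ones over all transcripts, and 0.49 and 0.47 against 0.28 and 0.31 over the longer ones. The ratio was thus lower in old than in young cells on both sums, whereas its size in young cells was not fixed. On other scales and lengths, it was 1.33 and 1.24 in ICM and 2.14 in each WT library. The WT ratio divides by all annotated exon bases, 10829 for SMC1A and 15505 for SMC3. Their leading transcripts in the young and old tables had 9784 and 4114 bases, so that the WT ratio does not give the order of the genes. CTCF was at 11.7 and 9.37 TPM in old cells.

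The ratio of STAG1 to STAG2 was 0.63 and 0.66 in young and 0.54 and 0.60 in old cells, with STAG2 the more abundant throughout. PDS5A exceeded PDS5B by a ratio of 1.41 and 1.29 in young cells and of 1.81 and 1.71 in old ones, or of 2.13 and 1.87 in young and 2.70 and 2.62 in old cells over the longer transcripts. These are ratios of levels within a table, with 1 table per group, and they were not tested.

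The tables also split each gene into transcripts. In 8 of the 10 members 1 transcript held the largest share of the gene's counts in all 4 tables, or in 6 members when shares of TPM were used. For 4 members (SMC3, RAD21, PDS5A and STAG1) the leading transcript held over 90% throughout. For CTCF, CTCF-209 held 69.2% to 80.0%, and CTCF-217 held 13.5% in young and 28.3% in old I10 cells but 13.2% and 7.7% in young and old I79 cells. SMC1A-201 held 78.2% and 76.4% of SMC1A in young I79 and I10 cells and 94.96% and 83.9% in old ones. SMC1A-202 went from 14.5% to 0 in I79 and from 14.7% to 10.1% in I10. NIPBL was shared by NIPBL-202 (39.8% to 55.0%) and NIPBL-201 (39.4% to 53.9%), and PDS5B by PDS5B-201 (43.2% to 49.4%) and PDS5B-203 (44.4% to 49.9%), the latter annotated as subject to nonsense-mediated decay. Transcripts of a gene share reads, and the shares carry no replicate error here.

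Many genes that act with cohesin were lower in old cells. Of 18 cohesin cofactors tested, 6 fell, none rose and 12 did not pass, against 3.82% of all genes called lower, and their median log2 fold change was -1.24, against -0.01 for all genes. The 6 were AURKB (-2.36, SE 0.30, adjusted p = 0.00827), PLK1 (-2.35, SE 0.24, adjusted p = 0.00576) and CDCA5 (-2.14, SE 0.27, adjusted p = 0.00819), TIMELESS (-1.86, SE 0.15), SGO2 (-1.37, SE 0.16) and WDHD1 (-1.25, SE 0.14). AURKB and PLK1 are mitotic kinases that help strip cohesin from chromosome arms, CDCA5 (sororin) holds acetylated cohesin on sister chromatids, SGO2 guards centromeric cohesin, and TIMELESS and WDHD1 travel with the replication fork. The alternative to ESCO2, the acetyltransferase ESCO1, had a log2 fold change of -0.04 (SE 0.13), with 18.9 and 19.1 CPM in young and 18.2 and 18.8 in old cells of I79 and I10.

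Of 9 CTCF and loop partners, TOP2B alone passed the thresholds by edgeR (-0.95, SE 0.11, adjusted p = 0.00774), as did 9.57% of all genes. TOP2B is the topoisomerase found at CTCF and cohesin sites. It had 246 and 253 CPM in young I79 and I10 cells and 118 and 141 in old ones. Its young and old values did not overlap, which was so for 74% of all genes. Of the 7 genes of the SMC5/6 complex, a relative of cohesin in DNA repair, none passed by edgeR, and 3 had an unadjusted p under 0.05, which 45.4% of all genes had. Of the 5 germline paralogs 2 were tested and neither passed both thresholds.

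**Figure D3:**
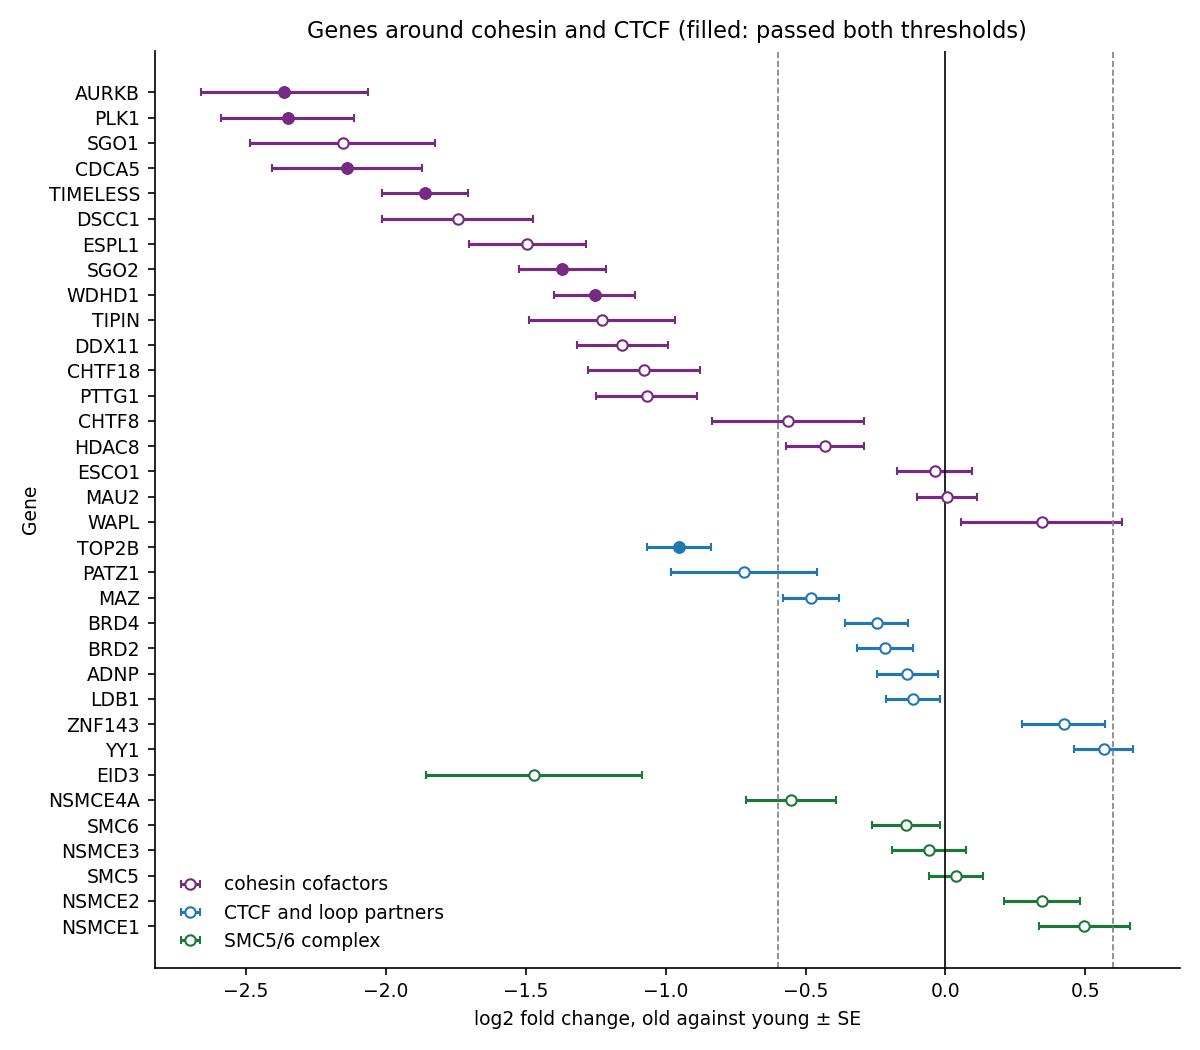
Fitted log2 fold change (old against young) with its SE for 18 cohesin cofactors (purple), 9 CTCF and loop partners (blue) and 7 genes of the SMC5/6 complex (green). Filled symbols passed both thresholds, and dashed lines mark 0.6 in each direction. Most cofactors lie left of the line, with AURKB at -2.36 the lowest, and 7 symbols are filled, TOP2B among them.

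Markers of proliferating cells moved with these values. Of 10 such genes 9 fell in old cells, with log2 fold changes of all 10 between -2.599 (MKI67) and -0.99 (PCNA). MKI67, a nuclear protein of cycling cells, had 194 and 228 CPM in young I79 and I10 cells and 21.8 and 54.1 in old ones. CDK1, the mitotic kinase, had 48.1 and 54.9 CPM in young and 10.6 and 20.3 in old cells (-1.80, SE 0.21, adjusted p = 0.0074). PCNA, the sliding clamp of DNA replication, missed the threshold (adjusted p = 0.0144). Their part in the changes of ESCO2, SMC1A and the cofactors was not tested.

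The second comparison asked whether depletion of HMGB2 was accompanied by changes in the members. None of the 10 passed the thresholds, against 5.2% of 15338 genes (2.34% lower, 2.86% higher) by edgeR. At an unadjusted p under 0.05, 2 members passed (PDS5A and PDS5B), against 23.9% of genes, and by DESeq2's Wald test none was called. The median log2 fold change of the members was -0.08 and their range ran from -0.32 to 0.13. The values of the 2 groups did not overlap for 5 members, CTCF, STAG2, PDS5A, PDS5B and ESCO2, against 53.8% of all genes. The labels name no separate cultures, so that these p-values may measure technical spread only. HMGB2 itself stood at 27.1 and 27.3 CPM in WT. It had 122 and 141 CPM in young I79 and I10 cells and 38.2 and 46.3 in old ones, counted in another way. The part of the WT level of HMGB2 in this comparison was not tested.

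CTCF had 48.2 and 49.5 CPM in the WT libraries and 52.7 and 54.2 in HMGB2 KD. The knockdown libraries were thus slightly higher (log2 fold change 0.13, SE 0.12, adjusted p = 0.595). SMC1A had 90.1 and 94.7 CPM in WT and 90.3 and 88.9 in HMGB2 KD (-0.04, SE 0.12, adjusted p = 0.880), with overlapping values. SMC3 had 60.2 and 63.4 CPM in WT and 73.9 and 59.2 in HMGB2 KD, and RAD21 had 130 and 128 in WT and 145 and 125 in HMGB2 KD. For both genes the HMGB2 KD libraries lay on either side of the WT ones, and the fold changes of 0.11 (SE 0.14) and 0.07 (SE 0.13) turned sign without the first HMGB2 KD library.

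PDS5A and PDS5B gave the lowest unadjusted p among the members, and both lay lower in HMGB2 KD. PDS5A had 99.9 and 108 CPM in WT and 87.8 and 78.4 in HMGB2 KD (-0.32, SE 0.13, adjusted p = 0.135). PDS5B had 55.0 and 61.0 CPM in WT and 52.3 and 40.5 in HMGB2 KD (-0.32, SE 0.14, adjusted p = 0.188). STAG2 had 148 and 147 CPM in WT and 139 and 103 in HMGB2 KD (-0.29, SE 0.15, adjusted p = 0.266). In 7 members, SMC1A, SMC3, RAD21, STAG2, NIPBL, PDS5A and PDS5B, the second HMGB2 KD library was the lowest of the 4. Without it the log2 fold changes of STAG2 and PDS5B were -0.086 and -0.15, and without the first HMGB2 KD library they were -0.53 and -0.53 (edgeR, adjusted p = 0.0263 and 0.0275), with no call in either case.

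STAG1 had 67.4 and 79.6 CPM in WT and 83.6 and 75.9 in HMGB2 KD (0.12, SE 0.13), and NIPBL had 75.8 and 85.4 in WT and 82.8 and 65.3 in HMGB2 KD (-0.12, SE 0.14). Their groups overlapped. ESCO2 was low in all 4 libraries, with 2.57 and 2.598 CPM in WT and 1.80 and 2.41 in HMGB2 KD. Its counts of 66 to 97 gave a wide error (log2 fold change -0.29, SE 0.31, adjusted p = 0.641 by edgeR). A call needed both a log2 fold change past 0.6 and an adjusted p under its threshold. With an SE of 0.31, a change somewhat past 0.6 could still have missed the adjusted p threshold, and a smaller one could not be called. The lack of a call for ESCO2 at this depth thus does not exclude a change of that size.

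**Figure D4:**
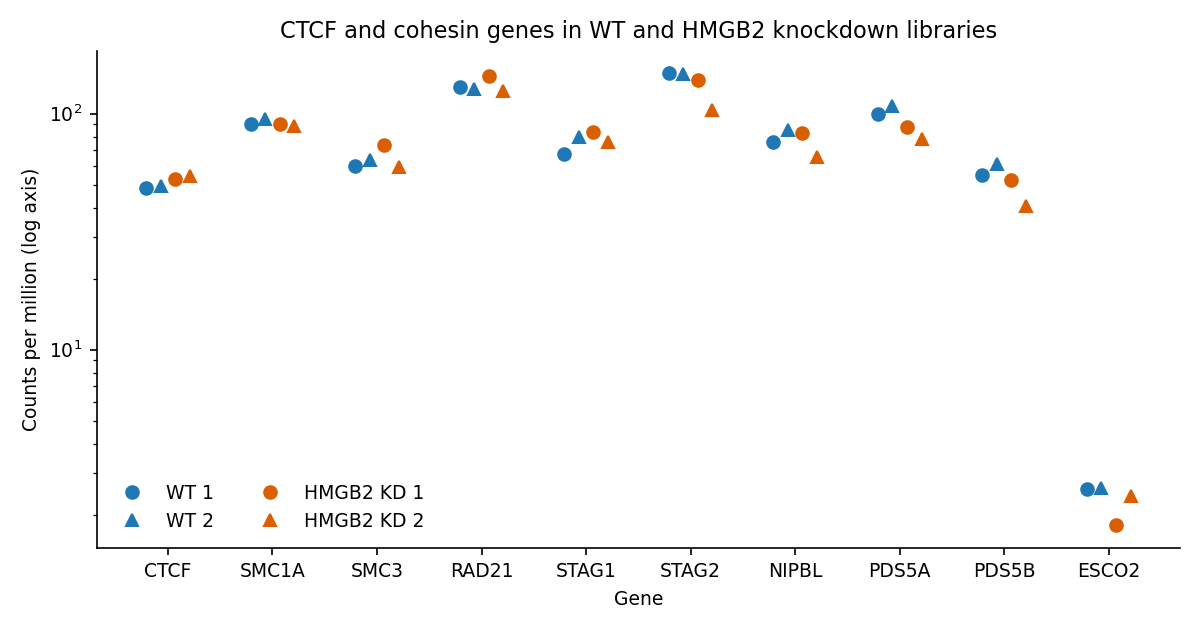
CPM (log axis) of the 10 members in the WT (blue) and HMGB2 KD (orange) libraries, with circles for the first and triangles for the second library. The groups lie close together for each gene, and the second HMGB2 KD library is the lowest of the 4 for 7 members, among them STAG2 (103) and PDS5B (40.5).

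Around cohesin, none of 17 cofactors and none of 9 CTCF and loop partners passed the thresholds by edgeR, against 5.2% of all genes. An unadjusted p under 0.05 was reached by 1 and 0 of them, against 23.9% of all genes. SMC6, an arm of the SMC5/6 complex, was the only gene of these lists that rose, as did 2.86% of all genes. It had 21.6 and 24.6 CPM in WT and 36.96 and 38.5 in HMGB2 KD (0.71, SE 0.14, adjusted p = 0.00418), and it lost the call without the first WT library (0.61, adjusted p = 0.0900) or without the second HMGB2 KD library (0.68, adjusted p = 0.0185). In old against young cells its log2 fold change was -0.14 (SE 0.12). The summed proliferation markers were close, at 344 and 348 CPM in WT and 334 and 314 in HMGB2 KD.

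The third comparison set ICM-treated I79 cells beside young I79 cells. Over the 24638 genes listed in all tables, 9 of the 10 members, all but STAG1, were lower in ICM by over 0.6 on the log2 scale, against 32.8% of the 13282 of these genes that were also tested in old and young cells. The median log2 ratio of the members was -1.62, and that of all genes was -0.13. No test was made, because the ICM libraries were counted by gene region, unlike the other tables. Treatment, counting and any difference in how the libraries were prepared or sequenced cannot be told apart. The same control table enters the I79 old and the ICM values. The WT libraries, which were also counted in another way, were lower than young I79 cells by over 0.6 in 2 members (RAD21 and ESCO2) and in 25.1% of genes. Against WT, 9 members were lower in ICM by over 0.6, and so were 28.3% of genes. Between young I10 and young I79 cells, which were counted alike, no member and 2.54% of genes differed by so much downward.

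CTCF had 18.1 and 16.9 CPM in the ICM libraries, 52.5 in young I79 cells and 52.3 and 53.7 in WT, on the scale of the shared genes. The ICM values were thus about equal to each other and below both other groups, with a log2 ratio of -1.58 to young I79 and of -1.59 to WT. SMC1A had 50.5 and 46.3 CPM in ICM, 129 in young I79, 51.3 in old I79 and 97.7 and 103 in WT cells. Its ICM level was therefore close to that of old I79 cells, with a log2 ratio of -0.09 between them. This ratio was also small for STAG1 (-0.01). The other members were lower in ICM than in old I79 cells, from -0.67 for CTCF to -1.66 for STAG2. ESCO2, on few reads, was at -1.86. The median log2 ratio of ICM to old I79 cells was -1.22 for the members and 0.03 for all genes. These tables too were counted in different ways, and the ratios were not tested.

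SMC3 had 28.6 and 27.9 CPM in ICM against 100.5 in young I79 cells, a log2 ratio of -1.83. RAD21 had 65.5 and 57.4 CPM in ICM against 223 in young I79 cells, a log2 ratio of -1.86. For SMC3 the ICM tables held 1 and 0 reads in the 3′ region beyond the coding sequence, against 156 and 118 for SMC1A, and RAD21 and SMC3 were also lower in WT than in young I79 cells, by log2 ratios of -0.68 and -0.58. With coding and noncoding reads alone in the ICM libraries, the log2 ratio to young I79 was -1.24 for SMC3 and -1.79 for RAD21. On these reads it was -1.39 for STAG2, -0.90 for NIPBL, -0.79 for PDS5A and -1.29 for PDS5B. The median of the members was then -1.26, and that of all genes was -0.23. Young I79 counts were left whole.

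STAG1 was the exception in ICM. It had 76.9 and 73.6 CPM there, 99.2 in young I79, 76.0 in old I79 and 73.1 and 86.3 in WT cells, and its log2 ratio to young I79 was -0.40 and to WT was -0.08. STAG2 had 35.8 and 40.1 CPM in ICM against 124 in young I79 and 161 and 159 in WT cells, a log2 ratio of -1.71 to young I79 and of -2.08 to WT. On coding reads per kilobase, STAG1 exceeded STAG2 in the ICM libraries by a ratio of 1.87 and 1.74, whereas the ratio on counts per kilobase was 0.93 and 1.10 in WT and 1.23 and 1.499 in HMGB2 KD. The WT and HMGB2 KD ratios divide by all annotated exon bases, 7843 for STAG1 and 15987 for STAG2. The leading transcripts in the young and old tables had 6055 and 5991 bases. Without a length, STAG1 had 67.4 and 79.6 CPM in WT, and STAG2 had 148 and 147. The ratios on TPM in young and old cells were all below 1. The scales differ between these tables, so that the ratios cannot be compared between them.

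NIPBL had 38.3 and 31.1 CPM in ICM against 92.4 in young I79 cells (log2 ratio -1.42). PDS5A had 59.7 and 59.8 against 125.0 (-1.06), and PDS5B had 17.9 and 17.3 against 56.2 (-1.67). All 3 were also lower than WT, by log2 ratios of -1.34, -0.91 and -1.83. ESCO2 had 2.67 reads in each ICM library, fewer than the 3 counts taken as the floor, against 127 counts in young I79 cells. The log2 ratio of the summed reads was -5.44 (95% counting interval -7.09 to -4.18) to young I79 and -3.72 (-5.36 to -2.47) to WT.

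**Figure D5:**
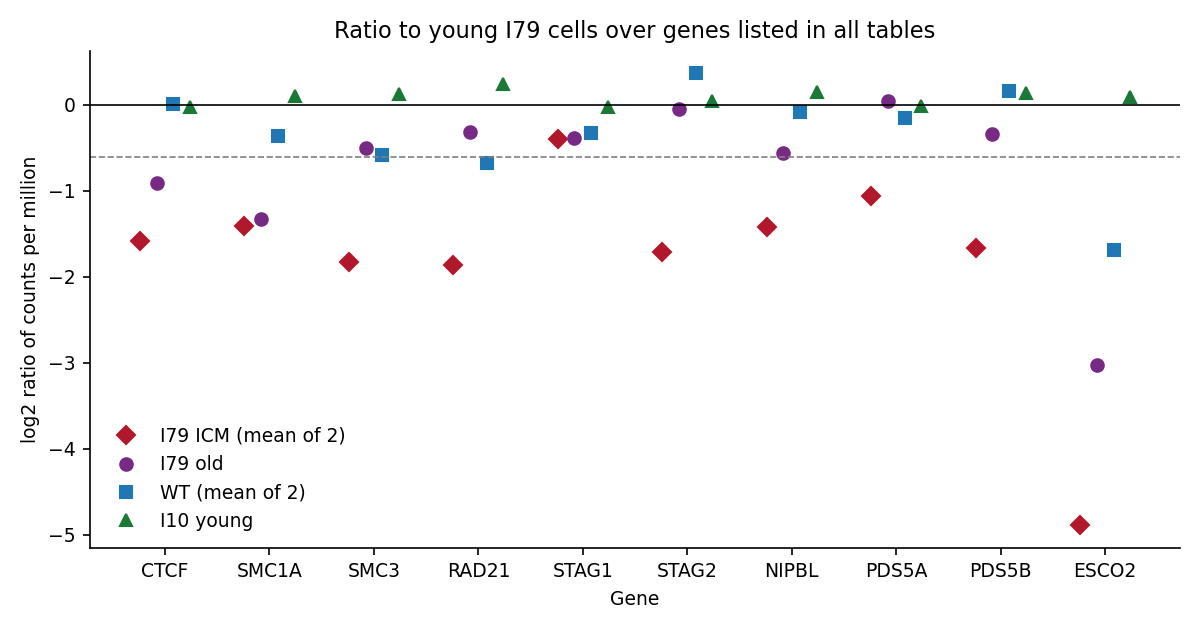
Log2 ratio of CPM to young I79 cells for each member in ICM-treated I79 cells (red diamonds, mean of 2 libraries), old I79 cells (purple circles), WT cells (blue squares, mean of 2) and young I10 cells (green triangles). The dashed line marks -0.6, and 2 counts were added as a prior. ICM values lie between -1.06 and -1.86 except STAG1 at -0.40 and ESCO2 at -4.89, while young I10 cells lie near 0.

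The proliferation markers moved with ICM and with the WT libraries as well. On the scale of the shared genes, their summed level was 1202 and 1342 CPM in young I79 and I10 cells, 234 and 328 in old ones, 102 and 101 in ICM and 344 and 348 in WT. MKI67 had 1.17 and 0.66 CPM in ICM against 221 in young I79 cells. Their part in the lower level of the members in ICM was not tested.

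Genes with the profile most like CTCF over the 8 columns of both tested comparisons, each comparison centred on its own mean, were KNOP1, UBTF and TYMS (Pearson r of 0.997, 0.997 and 0.996 over 12775 genes searched). Their log2 fold changes in old cells were -0.73, -0.61 and -1.08, and in HMGB2 KD they were 0.13, 0.07 and 0.19. For ESCO2 the nearest were HMGN2, POLE and HNRNPD (r of 0.997, 0.997 and 0.996), with -1.74, -1.03 and -1.09 in old cells. These likenesses rest on 8 columns, 4 of which carry the age difference, and they are descriptions.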

How the data were processed

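IMR90 polyA RNA was analysed from the processed files in which the authors deposited their results. The members and all gene lists were chosen with earlier results of these data known. The young and old tables hold, as deposited, estimated counts and TPM per transcript, 1 table per group. The program that made them is not given in the sources used here. Of their transcript IDs, 97.7% matched GENCODE v44 on GRCh37 coordinates, and estimated counts were summed per gene and rounded. The WT and HMGB2 KD files hold deposited read counts per gene, for which the submitters' processing notes name STAR 2.6.0c, featureCounts and GRCh37, with strand not given. Rows that name no gene made up 16.9% to 18.0% of their totals and were left out. The ICM files hold deposited read counts per gene region, some fractional, and their aligner and build are not given in the sources used here. The authors' own tables of fold changes and p-values were not used.

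The tests were edgeR 4.0.16 quasi-likelihood fits (R 4.3.3, TMM scaling, filterByExpr, Benjamini-Hochberg over all genes), with the study's thresholds, 0.01 for the adjusted p and 0.6 for the size of the log2 fold change. Old against young had isolate as a covariate. SE was taken as the log2 fold change over the square root of F. Ratios to young I79 used CPM over the genes listed in all tables with a prior count of 2. Intervals are exact binomial (95%), and they and the floor of 3 counts cover counting error only. The fits were tested on simulated data. Replicates differed by more than sampling noise (chi-square per degree of freedom of 18.0 in WT, 28.0 in HMGB2 KD and 1.78 in ICM). All 10 members overlap other annotated genes, 5 of them coding ones (SMC1A with RIBC1, for example), and reads shared with these cannot be separated without strand. The genes named were all 10 members, the genes of 4 related lists that passed (up to 6 per list and comparison), MKI67, CDK1 and PCNA, the 3 genes most like CTCF and ESCO2, HMGB2, and ESCO1, chosen after its values were seen. Alternatives covered scaling, filters, tests, thresholds, the replicate block, a RUVs factor, leaving out each library, and TPM over transcripts of at least 1000 bases, chosen after seeing the data.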

Additional observations from a re-analysis of the deposited data

Results flagged for a closer look

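In 3 genes around cohesin the isolates moved in opposite directions with age, which 19.1% of all 15116 genes tested did. The differences were not tested, since each isolate has 1 table per age. WAPL, which releases cohesin from DNA, had a log2 ratio of old to young of 0.93 in I79 (228 and 514 counts) and of -0.20 in I10 (761 and 626 counts), and both counting intervals excluded 0 (0.71 to 1.17 and -0.35 to -0.04). Its level in young I79 cells, 14.6 CPM, was the lowest of the 4 tables, against 39.7 in young I10 cells. REC8, the meiotic kleisin, had 1.498 in I79 and -0.46 in I10 on 24 to 80 counts, and the I10 interval included 0. MAU2, the partner of NIPBL, had 0.076 in I79 and -0.063 in I10, and both intervals included 0. None of the 10 members was flagged.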

How the results depend on the processing

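In old against young cells, 1447 genes passed both thresholds, and 3130 passed with plain library totals, 4251 with no filter on low counts and 3860 at an adjusted p under 0.05. The members called numbered 2, also with TPM times length, but 3 (CTCF added) with DESeq2 size factors, DESeq2's Wald test, no filter, no isolate covariate or an adjusted p under 0.05, and 5 with plain totals (SMC3 and NIPBL added). With those totals 32.6% of calls were upward against 60.1% in the TMM fit, and STAG2 and PDS5A turned sign to -0.13 and -0.085. Of 70 values of the 10 members with a test in these alternatives, 60 kept their direction and side of the threshold and 8 moved past it. Without the isolate covariate SGO2 and AURKB lost their calls (adjusted p = 0.0145 and 0.0127).

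In HMGB2 KD against WT, 797 genes passed, 1243 with the replicate block and 312 to 999 when 1 library was left out, the fewest without the second HMGB2 KD library. The replicate numbers do not pair cultures by the labels. The deviations of same-numbered samples from their group means, in log2 CPM, correlated at 0.12. The members called were 0 in every setting, and 107 of 110 values kept their direction. Leaving out 1 library each, SMC3 ranged from -0.072 to 0.26 and RAD21 from -0.055 to 0.18, lowest without the first HMGB2 KD library, and NIPBL from -0.31 to 0.042, highest without the second. In ICM, 9 members were below -0.6 in all 5 alternatives. These included WT as the control, and coding and noncoding reads alone in the ICM libraries. All 5 set ICM against tables counted in another way, so that they cannot test the part of the counting. Limiting TPM to transcripts of at least 1000 bases, chosen after seeing the data, touches no test and moves the levels of SMC1A and PDS5B. The count of genes with 1 leading transcript was 8, or 6 by TPM. The young and old groups have 1 table each, which limits their test to 1 residual degree of freedom, and ESCO2 is limited by its low counts in old and ICM cells.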
